A study of Rattus norvegicus with 6 samples.

Results

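The let-7 family guide arms, miR-98 included, were compared between the vesicles and the cells of rat nerve fibroblasts. The 9 members are the rows of the count table named rno-let-7a-5p, rno-let-7b-5p, rno-let-7c-5p, rno-let-7d-5p, rno-let-7e-5p, rno-let-7f-5p, rno-let-7g-5p, rno-let-7i-5p and rno-miR-98-5p, out of 1071 rows. Of those rows, 552 are known rat miRNAs and 519 are predicted. None of the 39 rows that join several names holds a member (0 rows). The 6 libraries came from wild-type, untreated, nerve-derived fibroblasts of sciatic nerve, in 1 batch by the labels. In the group called EV, 3 libraries were made from RNA of the extracellular vesicles, which the labels call exosomes. In the group called Intracellular, the control of the design, 3 libraries were made from RNA inside the cells. Whether the replicates of a group were grown or taken separately is not in the labels. The p-values therefore speak only of the spread among these libraries, part or all of which may be technical.

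let-7 miRNAs are short RNAs cut from hairpin precursors. One arm, the guide, is loaded into an Argonaute protein and directs it to messenger RNAs that pair with the seed near its 5′ end, and the other arm, the passenger, is mostly degraded. Members of the family share the seed, and known targets of let-7 include Hmga2, Lin28 and Ras genes. LIN28 in turn binds let-7 precursors and blocks their processing, and mature let-7 is typically abundant in differentiated cells such as fibroblasts.

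The mature sequences are shown because all comparisons between members rest on telling them apart. They are RefSeq entries (GRCr8), written 5′ to 3′, with the seed (bases 2 to 8) in capitals. All 9 members matched by name, and each sequence equals the one in the deposited table.
let-7a-5p: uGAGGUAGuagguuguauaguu
let-7b-5p: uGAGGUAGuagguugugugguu
let-7c-5p: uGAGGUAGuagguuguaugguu
let-7d-5p: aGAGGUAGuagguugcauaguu
let-7e-5p: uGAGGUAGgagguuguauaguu
let-7f-5p: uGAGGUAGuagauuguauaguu
let-7g-5p: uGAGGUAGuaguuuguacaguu
let-7i-5p: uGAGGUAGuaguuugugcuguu
miR-98-5p: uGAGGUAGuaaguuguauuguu

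All 9 have 22 bases, so their counts can be compared without a correction for length. The seed GAGGUAG occurred at bases 2 to 8 in 9 of 659 rows of the count table that have a sequence, and all 9 are the members. It likewise occurred in 9 of 693 mature names of the RefSeq table. Positions below are counted from 1 at the 5′ end, with the base of let-7a first. let-7c differs from let-7a by A19G, let-7e by U9G and let-7f by G12A. let-7b differs by A17G and A19G, let-7d by U1A and U16C, let-7g by G12U and U18C, and miR-98 by G11A and A19U. let-7i differs most, by G12U, A17G, U18C and A19U. let-7b and let-7c are the only members with A19G. let-7a and let-7c share their first 18 bases, and let-7g and let-7i their first 16. How the authors divided reads that fit several members is not given in the sources used here, so the level of a single member is less certain than the sum of the 9.

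The EV libraries were shallow, with totals of 81211 to 105578 counts against 1839047 to 8859302 in the Intracellular libraries. The family still held 16999 to 22616 counts in each EV library, and the rarest member, miR-98-5p, held 94 to 119. Intracellular replicate 1 stood apart from the other libraries of its group. Its TMM factor, the edgeR correction for differences in RNA make-up, was 0.557 against 0.963 and 0.935, and the EV factors were 1.17 to 1.35. Results that rest on this library are therefore also given without it. This library was set aside for standing apart in these same data, so p-values without it do not cover its spread. The 7 fibroblast and mesenchymal marker miRNAs were all detected and took 43.6% to 46.1% of EV counts and 47.4% to 49.6% of Intracellular counts. The liver and serum marker miR-122-5p took 1.12% to 1.37% of EV counts against 0.0118% to 0.0345%. The 2 erythroid markers, both detected, summed to 152 to 222 CPM (counts per 1000000 counts of a library) in EV and 2.03 to 5.98 CPM in Intracellular libraries. The 3 muscle markers, all detected, summed to 49.3 to 152 CPM against 9.06 to 12.6 CPM. The neuronal, glial, leukocyte and endothelial marker sums overlapped between the groups, with miR-219a-5p, miR-142-5p and miR-223-3p at 0 in EV and no row for miR-124-3p in the table used here, and 0 of 4 epithelial markers had EV counts. The part of these other cell types in the let-7 results was not tested.

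The 9 guide arms together took a smaller part of the vesicle libraries than of the cell libraries. The family held 20.9%, 21.4% and 23.5% of all counts in EV replicates 1, 2 and 3, and 30.2%, 24.1% and 23.8% in the Intracellular replicates. The means were 21.95% ± 1.37 and 26.0% ± 3.61 (SD, n = 3). Every EV library lay below every Intracellular library, but EV replicate 3 lay close to Intracellular replicates 2 and 3, and Intracellular replicate 1 was far above the rest. The difference of -4.08 percentage points became -1.996 without that library, with an Intracellular mean of 23.9%. No p-value is given for this sum, since its members were chosen as a family. A share of counts is relative, so it also falls when other miRNAs take more of a library. In these bulk libraries, fewer vesicles carrying let-7, fewer copies in each and more of other miRNAs cannot be told apart.

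The size of the gap depended on which other miRNAs it was set against. When the 10 most abundant miRNAs outside the family were left out of the total, the family held 46.7%, 47.2% and 50.6% in EV and 75.2%, 59.3% and 59.0% in Intracellular libraries, a difference of -16.3 points. Against miR-21-5p, a miRNA abundant in fibroblasts, the ratio of family counts was 1.71, 1.63 and 1.76 in EV and 1.82, 1.66 and 1.61 in Intracellular libraries. These ranges overlap, with means of 1.70 ± 0.0628 and 1.70 ± 0.109 (SD, n = 3). Against miR-143-3p, a mesenchymal miRNA and the most abundant one here, the ratio was 1.00, 1.08 and 1.28 in EV and 1.31, 1.11 and 1.14 in Intracellular libraries, which also overlap. Against miR-16-5p, a broadly expressed miRNA of the miR-15/16 family, it was 405, 348 and 482 against 1435, 443 and 363. That last ratio rests on as few as 42 counts of miR-16-5p in a library, and Intracellular replicate 1 alone gave the high value.

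The order of the members was similar in vesicles and cells. let-7i-5p led the family, with 70409, 72885 and 80581 CPM in EV and 113715, 90422 and 84592 CPM in Intracellular libraries. It was the third most abundant of all miRNAs in every library. let-7f-5p followed, with 46989, 49338 and 52800 CPM in EV and 72480, 60875 and 64893 CPM in Intracellular libraries, and ranked 4 to 5 among all miRNAs. For both members the highest EV library lay below the lowest Intracellular one. let-7d-5p and miR-98-5p were the rarest members in both groups, at 3891 ± 216 and 1184 ± 73.7 CPM in EV and 4304 ± 330 and 1475 ± 156 CPM in the cells (SD, n = 3).

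The middle of the order differed between the fractions. In EV libraries it ran from let-7c-5p (29896 ± 2226 CPM) through let-7g-5p (27322 ± 1352), let-7a-5p (18490 ± 1396) and let-7b-5p (9082 ± 435) to let-7e-5p (5331 ± 275). In Intracellular libraries it ran from let-7g-5p (29711 ± 3547 CPM) through let-7c-5p (25490 ± 5260), let-7a-5p (22856 ± 3966) and let-7e-5p (7433 ± 745) to let-7b-5p (6707 ± 1665; SD, n = 3). Among neighbours in EV, the CPM ranges of let-7c-5p and let-7g-5p overlapped, and those of all other neighbours did not. Among neighbours in Intracellular libraries, the ranges overlapped for let-7g-5p with let-7c-5p, let-7c-5p with let-7a-5p, and let-7e-5p with let-7b-5p. Within libraries, let-7c-5p exceeded let-7g-5p in 3 of 3 EV libraries and let-7g-5p exceeded let-7c-5p in 3 of 3 Intracellular ones. let-7e-5p exceeded let-7b-5p in 2 of 3 Intracellular libraries.

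**Figure D1:**
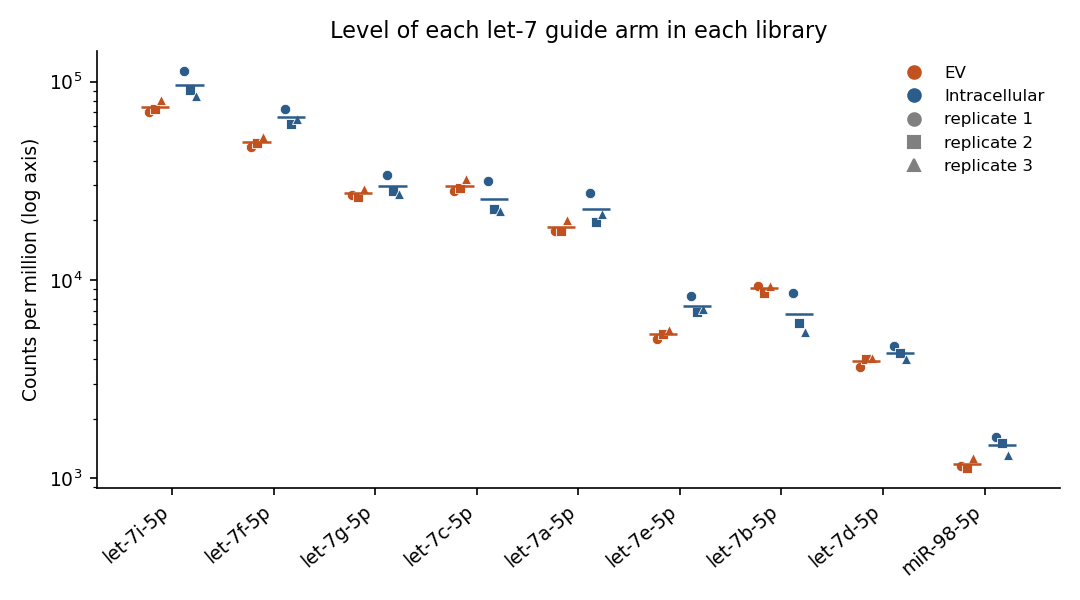
Level of each member in CPM on a log axis, with 1 point per library (circle, square and triangle for replicates 1, 2 and 3) and a line at the mean of each group. let-7i-5p leads in all 6 libraries, the Intracellular circles of let-7i-5p and let-7f-5p stand highest, and the EV points of let-7b-5p and let-7c-5p lie at or above most of their Intracellular points.

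The wider spread of the Intracellular replicates rested on replicate 1 for most members, but not for all. The coefficient of variation of CPM was 4.79% to 7.55% in EV and 7.67% to 24.8% in Intracellular libraries over the 9 members. Over Intracellular replicates 2 and 3 alone it was 1.41% to 9.90%, and lower than in EV for 6 of 9 members. It stayed above EV for miR-98-5p (9.90% against 6.22%), let-7b-5p (7.79% against 4.79%) and let-7d-5p (5.63% against 5.56%). This sets 2 libraries against 3, and leaving out an extreme library lowers the spread in any case. Counting error alone gives 1.21% to 9.58% in EV, where it exceeded the observed spread for miR-98-5p alone. let-7b-5p had the largest Intracellular spread, with 8595, 6081 and 5446 CPM in replicates 1, 2 and 3.

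On the CPM scale, with no scaling beyond library totals, 4 of 9 members lay lower in EV with no overlap between the groups and 0 of 9 lay higher. All 9 passed the filter on low counts. Over the 328 miRNAs that did, the same was true of 3.66% in the lower and 41.8% in the higher direction. These percentages are not matched for abundance, since the tested miRNAs include rows with few EV counts, such as let-7c-1-3p with 4. The abundant non-members miR-143-3p, miR-21-5p and miR-99a-5p also lay lower in EV without overlap. The 4 members are miR-98-5p, let-7i-5p, let-7f-5p and let-7e-5p. let-7e-5p, whose seed is followed by the only G at that place in the family (U9G), had 5061, 5323 and 5610 CPM in EV and 8280, 6879 and 7139 CPM in Intracellular libraries. Its mean was 0.717 times the Intracellular mean, and 0.761 times without Intracellular replicate 1. miR-98-5p, carried on the X chromosome beside a copy of let-7f, had 1157, 1127 and 1267 CPM in EV and 1615, 1503 and 1306 CPM in Intracellular libraries. Its groups were separated by a narrow gap, and the 95% Wilson interval of EV replicate 3, 1058 to 1518 CPM, spans the lowest Intracellular value. Wilson intervals cover counting error only.

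Tested with edgeR's quasi-likelihood test and TMM scaling, 7 of 9 members fell in EV and 0 rose, where 17.1% of all tested miRNAs were called lower and 25.6% higher. None of the 9 had an unadjusted p under 0.05 in the higher direction (0 of 9), and DESeq2 and limma-voom gave 0 higher and 7 lower. The largest fall was that of let-7e-5p, at -1.21 on the log2 scale (SE 0.26, edgeR adjusted p = 0.00127). let-7f-5p fell by 1.14 (SE 0.32, edgeR adjusted p = 0.00871), let-7i-5p by 1.12 (SE 0.35, edgeR adjusted p = 0.0151) and let-7a-5p by 1.06 (SE 0.31, edgeR adjusted p = 0.0107) on the log2 scale. miR-98-5p fell by 1.04 (SE 0.25, edgeR adjusted p = 0.00340), let-7d-5p by 0.87 (SE 0.24, edgeR adjusted p = 0.00876) and let-7g-5p by 0.86 (SE 0.30, edgeR adjusted p = 0.0287). let-7c-5p (-0.54, SE 0.32, edgeR adjusted p = 0.193) and let-7b-5p (-0.34, SE 0.32, edgeR adjusted p = 0.406) did not pass the test. A fall of similar size was seen outside the family, in the abundant miR-21-5p (-0.97, edgeR adjusted p = 0.0319). miR-143-3p (-0.88, edgeR adjusted p = 0.0541) and the scarcer miR-16-5p (-0.35, edgeR adjusted p = 0.259) did not pass the test. The median log2 fold change of the 9 was -1.04, against -0.06 over all tested miRNAs, and all 9 lay below that overall median.

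These falls depended on the scaling and on Intracellular replicate 1. With total counts in place of TMM, the median of all tested miRNAs moved by 0.61, from -0.06 to 0.55, and the median of the 9 moved to -0.30. Then 2 of 9 members were called lower, let-7f-5p (-0.41, edgeR adjusted p = 0.00818) and let-7i-5p (-0.36, edgeR adjusted p = 0.0150), where 0.915% of all tested miRNAs were. None was called higher (0 of 9, 1 at an unadjusted p under 0.05), where 32.6% of all were. let-7b-5p and let-7c-5p changed sign, to 0.44 (edgeR adjusted p = 0.120) and 0.23 (edgeR adjusted p = 0.290). Without Intracellular replicate 1 and with TMM scaling, the same 7 members were called lower over the same tested miRNAs, of which 17.7% were, but by less. Their log2 fold changes were then -0.51 for let-7a-5p, -0.44 for let-7d-5p, -0.75 for let-7e-5p, -0.69 for let-7f-5p, -0.37 for let-7g-5p, -0.58 for let-7i-5p and -0.59 for miR-98-5p. let-7b-5p was then called higher (0.31, edgeR adjusted p = 0.0435), where 27.7% of all were, and let-7c-5p stood at 0.06. Lower calls were fewer over the whole table without EV replicate 1 or EV replicate 2. Without EV replicate 1, 5.49% of the same tested miRNAs and 2 of 9 members were called lower, let-7e-5p (-1.13, edgeR adjusted p = 0.0253) and miR-98-5p (-0.98, edgeR adjusted p = 0.0341), and the 9 lay between -1.13 and -0.31. Without EV replicate 2, 7.93% of the same tested miRNAs and 3 of 9 members were called lower, let-7d-5p and the same 2. When the remaining 5 libraries were filtered anew, these were 10.3% and 6 of 9. Without EV replicate 3, 5 of 9 members were called lower over the same tested miRNAs, and the share of all was not counted.

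**Figure D2:**
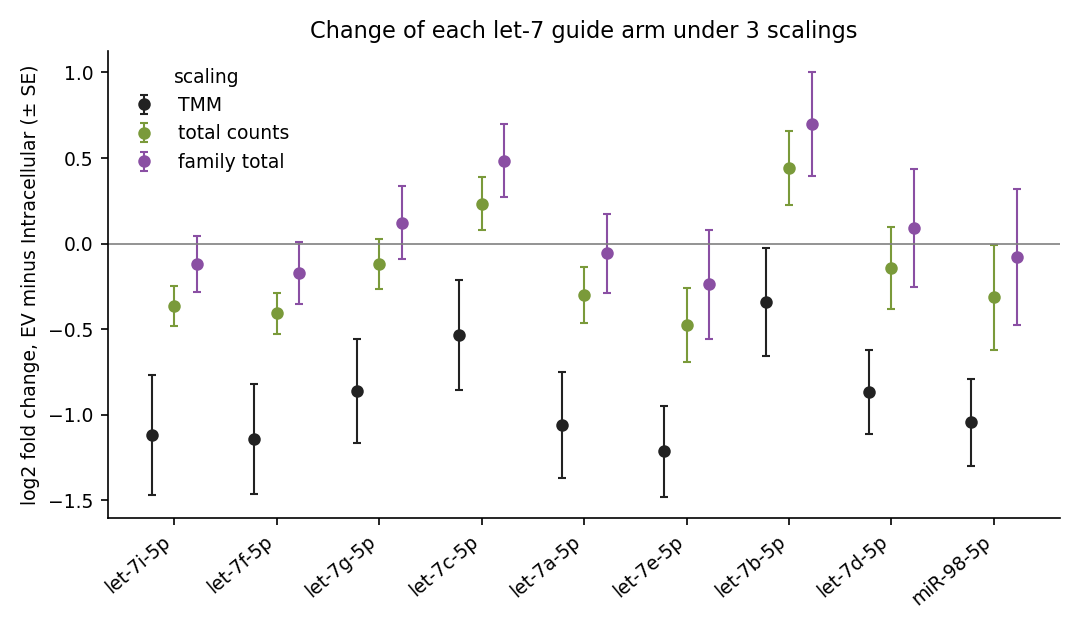
log2 fold change of each member, EV minus Intracellular, with its standard error, under TMM scaling (black), total counts (green) and the sum of the 9 members as library size (purple). Points shift upward together from TMM to total counts to the family total, and let-7b-5p and let-7c-5p stay highest under each.

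The make-up of the family needs no scaling between the fractions, since each member is set against the sum of the 9. let-7b-5p and let-7c-5p took larger shares of the family in EV, and let-7i-5p, let-7f-5p and let-7e-5p smaller ones. let-7b-5p took 4.44%, 4.01% and 3.99% of the family in EV and 2.85%, 2.53% and 2.29% in Intracellular libraries, with means of 4.14% ± 0.257 and 2.55% ± 0.282 (SD, n = 3; exact permutation p = 0.1). The EV mean was 1.62 times the Intracellular mean. let-7c-5p took 13.5%, 13.5% and 13.8% in EV and 10.5%, 9.42% and 9.33% in Intracellular libraries, with means of 13.6% ± 0.161 and 9.74% ± 0.623 (SD, n = 3; exact permutation p = 0.1), a ratio of 1.40. For both, all EV libraries lay above all Intracellular ones, Intracellular replicate 1 included.

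Of the other members, let-7g-5p also took a larger share, at 12.8%, 12.3% and 12.3% in EV and 11.2%, 11.7% and 11.4% in Intracellular libraries. let-7f-5p took a smaller one, at 22.4%, 23.0% and 22.5% in EV and 24.0%, 25.3% and 27.2% in Intracellular libraries. let-7i-5p, the leading member, took 33.6%, 34.0% and 34.3% in EV and 37.7%, 37.6% and 35.5% in Intracellular libraries. These 3 members did not overlap between the groups, and their EV shares varied by less than 1 percentage point between replicates. let-7e-5p took 2.42%, 2.48% and 2.39% in EV and 2.74%, 2.86% and 2.996% in Intracellular libraries, again without overlap. The shares of let-7a-5p, let-7d-5p and miR-98-5p overlapped between the groups, with means of 8.42% and 8.76%, 1.77% and 1.66%, and 0.539% and 0.569%. Thus 6 of 9 members did not overlap, 3 higher and 3 lower, where the ratio to the family total did not overlap for 48.5% of all tested miRNAs in the higher and 1.52% in the lower direction. Each of the 6 stood at an exact permutation p of 0.1 (2-sided), the smallest that 3 against 3 libraries can give, or 0.15 after Benjamini-Hochberg adjustment over the 9. Shares of 1 total are tied to each other, so a larger share of one member lowers those of others.

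**Figure D3:**
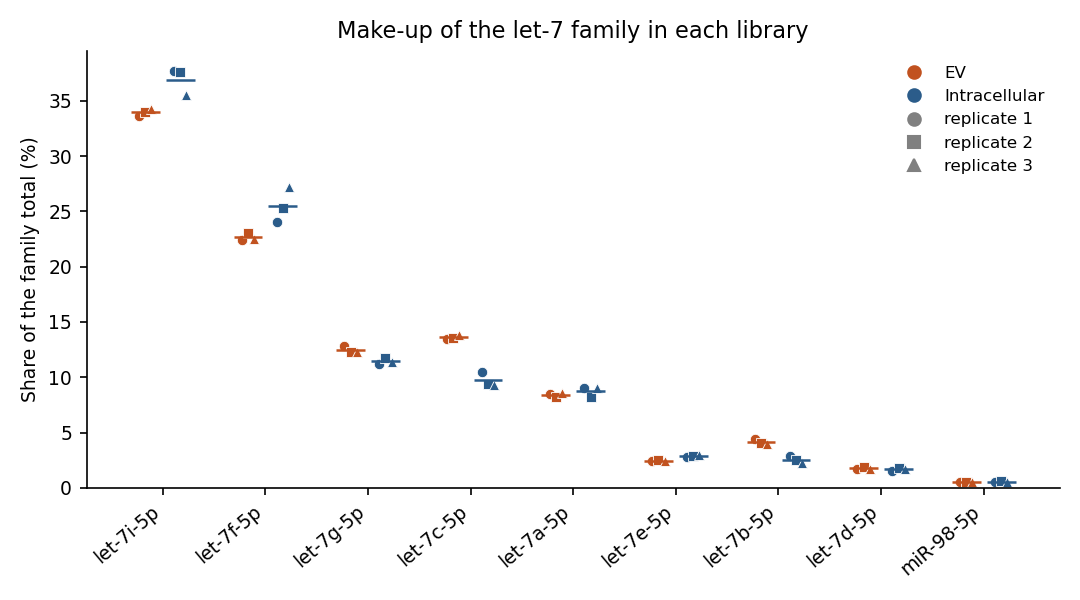
Share of each member in the sum of the 9 guide arms, in percent, with 1 point per library and a line at the group mean. The orange EV points of let-7b-5p and let-7c-5p lie above all blue Intracellular points, and those of let-7i-5p, let-7f-5p and let-7e-5p lie below.

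With the family total as library size, edgeR called 0 of 9 members, where 0.305% of all tested miRNAs were called lower and 32.3% higher on that scale. At an unadjusted p under 0.05 there were 2 members, both higher, and limma-voom also called 0. On the log2 scale let-7b-5p differed by 0.70 (SE 0.30, edgeR adjusted p = 0.0776) and let-7c-5p by 0.48 (SE 0.21, edgeR adjusted p = 0.0805). The other 7 lay between -0.24 (let-7e-5p) and 0.12 (let-7g-5p). Each member is part of that total, which damps its own change, and the other tested miRNAs are not. Set against the sum of the 8 other members, 1 of 9 was called, let-7c-5p (0.55, edgeR adjusted p = 0.0318). With the family total but without Intracellular replicate 1, 38.4% of the same tested miRNAs were called higher and 3.96% lower, and 4 members were called. let-7b-5p (0.78, edgeR adjusted p = 2.66e-05) and let-7c-5p (0.54, edgeR adjusted p = 9.20e-06) were higher. let-7e-5p (-0.27, edgeR adjusted p = 0.0260) and let-7f-5p (-0.21, edgeR adjusted p = 0.00321) were lower. Since that library was set aside after its values were seen, these p-values do not cover its spread.

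Ratios between members within a library show the same re-ordering pair by pair. They are a description, since the pairs below were picked after all 36 had been seen, and they share members. For 25 of 36 pairs the ratio did not overlap between the groups. let-7b-5p and let-7c-5p each took part in 8 such pairs, their full number, and let-7a-5p in 3. let-7c-5p over let-7a-5p, which differ by A19G alone, was 1.60, 1.64 and 1.61 in EV and 1.16, 1.15 and 1.03 in Intracellular libraries. let-7b-5p over let-7e-5p was 1.84, 1.61 and 1.67 in EV and 1.04, 0.884 and 0.763 in Intracellular libraries. let-7e-5p thus exceeded let-7b-5p in Intracellular replicates 2 and 3, and let-7b-5p exceeded let-7e-5p in every EV library. let-7i-5p over let-7g-5p, which share their first 16 bases, was 2.63, 2.77 and 2.79 in EV and 3.37, 3.20 and 3.12 in Intracellular libraries. let-7i-5p over let-7f-5p, the 2 leading members, overlapped, with means of 1.501 ± 0.0245 and 1.45 ± 0.136 (SD, n = 3).

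Read against the sequences printed above, the members with A19G, let-7b-5p and let-7c-5p, were those with the largest rise in share, by 1.62 and 1.40 times. let-7b-5p also has the most G and C bases, 10 of 22. let-7f-5p and miR-98-5p have the fewest, 7 of 22, and their log2 fold changes on the family scale were -0.17 and -0.08. Composition did not order the members between these ends. let-7c-5p, let-7d-5p, let-7e-5p and let-7i-5p all have 9 such bases, with 0.48, 0.09, -0.24 and -0.12 on that scale. These are 9 related sequences and no test was made.

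The 9 mature miRNAs come from 12 places in the rat genome, since let-7a, let-7c and let-7f each have 2 copies that give the same mature sequence. Coordinates are those of the RefSeq table (GRCr8), and the authors' build was Rnor_6.0, so they serve here to show which genes are neighbours. let-7b lies at chr7:118684044-118684065 on the plus strand, 408 bases after the start of a let-7c copy, so the 2 members whose share was larger in EV by the most lie side by side. let-7a, let-7f and let-7d lie together on chromosome 17, with starts 363 and 1765 bases apart. The other let-7f copy lies 611 bases before miR-98 on chromosome X. let-7i (chromosome 7, minus strand) and let-7g (chromosome 8) had no member of the family beside them. A mature row does not show which copy its reads came from.

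Some let-7 genes lie with members of the miR-99/100 and miR-125 families, whose known targets include Mtor for miR-99 and miR-100 and Lin28 for miR-125. miR-99b starts 173 bases before let-7e and miR-125a 446 bases after it on chromosome 1, and miR-100 starts 6912 bases before a let-7a copy on chromosome 8. miR-125b-2 starts 44461 bases after the other let-7c copy on chromosome 11. miR-99a is the known partner of let-7c on that chromosome. With TMM scaling all 5 of these 5p arms fell in EV (5 of 5), against the same 17.1% of all tested miRNAs. On the log2 scale, miR-99a-5p fell by 0.99 (edgeR adjusted p = 0.0112), miR-125b-5p by 0.99 (edgeR adjusted p = 0.00251) and miR-125a-5p by 0.83 (edgeR adjusted p = 0.00298). miR-99b-5p fell by 0.60 (edgeR adjusted p = 0.0355) and miR-100-5p by 0.59 (edgeR adjusted p = 0.0413). With total counts 0 of 5 were called, at -0.26, -0.37, -0.21, 0.04 and 0.08 in that order, and the sign turned for the last 2. With TMM scaling, miR-99b-5p and miR-100-5p also lost their calls under a filter of 10 counts in 3 libraries (edgeR adjusted p = 0.111 and 0.119), among known miRNAs alone (0.0828 and 0.0945) and with the replicate block (0.0894 and 0.0961). Both lost them without EV replicate 1, EV replicate 2 or Intracellular replicate 3. Both also lost them without Intracellular replicate 2 when the libraries were filtered anew (edgeR adjusted p = 0.113 and 0.125). Over the same tested miRNAs, miR-100-5p lost its call without EV replicate 3 (edgeR adjusted p = 0.0548). There miR-99a-5p lost its call without EV replicate 1 or 2 (edgeR adjusted p = 0.0670 and 0.0674). let-7e-5p and its 2 neighbours thus had TMM values of -1.21, -0.60 and -0.83. The difference between let-7e-5p and its neighbours was not tested.

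Passenger arms of the family were scarce, and let-7d-3p was the exception. The 11 rows of 3p arms held 235 EV counts in all, of which let-7d-3p took 78.7%, against 74.6% of Intracellular passenger counts. let-7a-2-3p and miR-98-3p had 0 counts in all 3 EV libraries, which allows a level of up to 10.7 CPM (3 counts of the pooled EV total). A further 7 rows had 1 to 9 EV counts, too few to describe. let-7d-3p had 690, 748 and 542 CPM in EV and 282, 407 and 395 CPM in Intracellular libraries. All EV libraries lay above all Intracellular ones, as they did for 41.8% of all tested miRNAs. Its guide let-7d-5p had 3645, 3978 and 4051 CPM in EV and 4634, 4304 and 3974 CPM in Intracellular libraries, which overlap.

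The let-7d hairpin is shown because both of its arms could be measured (RefSeq, GRCr8, chr17:16322260-16322357, plus strand). Capitals mark the guide arm, which comes first, and the passenger arm.
let-7d hairpin: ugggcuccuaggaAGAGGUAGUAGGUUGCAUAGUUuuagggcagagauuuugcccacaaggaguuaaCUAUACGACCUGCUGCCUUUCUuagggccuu

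Since both arms come from 1 transcript, their ratio needs no scaling between the fractions. let-7d-3p made up 15.9% (95% Wilson interval 12.5 to 20.1), 15.8% (12.9 to 19.3) and 11.8% (9.06 to 15.2) of let-7d counts in EV replicates 1, 2 and 3. It made up 5.73%, 8.65% and 9.05% in Intracellular replicates, with means of 14.5% ± 2.35 and 7.81% ± 1.81 (SD, n = 3). The lowest EV library lay above the highest Intracellular one, and the interval of EV replicate 3 overlapped those of Intracellular replicates 2 (8.22 to 9.10) and 3 (8.76 to 9.33). The log2 ratio of guide to passenger counts (1 added to each) was 2.55 ± 0.283 in EV and 3.59 ± 0.390 in the cells (SD, n = 3; exact permutation p = 0.1, adjusted p = 0.2 over the 2 ratios tested). The difference was -1.04, and -0.81 without Intracellular replicate 1. For let-7a and let-7c pooled, the same log2 ratio was 8.54, 8.81 and 8.44 in EV and 10.0, 8.56 and 8.72 in the cells, which overlap (n = 3, exact permutation p = 0.4). Intracellular replicate 1 alone was high there. Arm differences of this kind were not particular to let-7d. With TMM scaling, the log2 fold changes of let-7d-5p and let-7d-3p were -0.87 and 0.22. Those of miR-125a-5p and miR-125a-3p were -0.83 and 0.32, and those of miR-143-3p and miR-143-5p -0.88 and 0.59. The scarcer arm stood lower for miR-152 (3p 1.51, 5p -1.02) and miR-181a (5p -0.27, 1-3p -1.09). These precursors were picked with their values known.

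**Figure D4:**
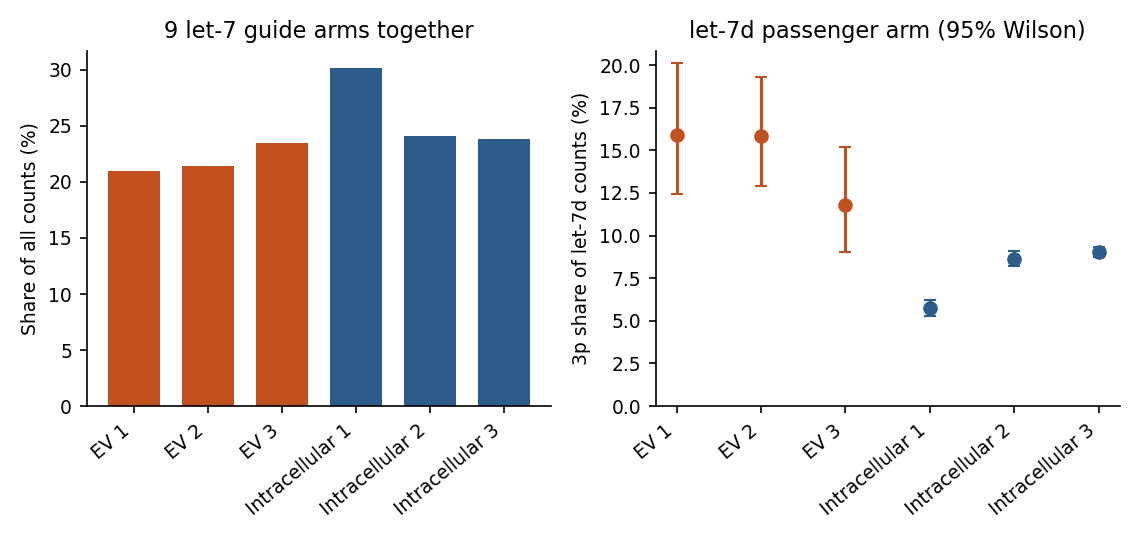
Left, share of all counts held by the 9 guide arms in each library, in percent, as bars from 0. Right, share of let-7d-3p in the counts of both let-7d arms, in percent, with 95% Wilson intervals. Intracellular replicate 1 has the highest family share and the lowest passenger share, and the EV libraries lie lower on the left and higher on the right.

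By edgeR with TMM scaling 0 of the 5 tested passenger rows were called, with 0 at an unadjusted p under 0.05 and 0 by DESeq2 and limma-voom. Of these rows, let-7c-1-3p, let-7e-3p and let-7i-3p held only 4, 6 and 7 EV counts, so their lack of a call says little. Of all tested miRNAs, edgeR with TMM called 17.1% lower and 25.6% higher. For let-7d-3p the log2 difference was 0.22 (SE 0.21, edgeR adjusted p = 0.411). With total counts let-7d-3p rose by 0.87 (SE 0.34, edgeR adjusted p = 0.0456). On that scale 32.6% of all tested miRNAs were called higher, and their median was 0.55. With the family total as library size it rose by 1.08 (SE 0.43, edgeR adjusted p = 0.0480), where 32.3% of all were called higher and the median was 0.74. The row that joins let-7a-1-3p and let-7c-2-3p rests on 28 EV counts and had 98.5, 75.8 and 130 CPM in EV and 51.1, 92.7 and 83.6 CPM in Intracellular libraries, which overlap.

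The miRNAs whose levels followed the sum of the 9 most closely across the 6 libraries were sought among 152 known non-members with a mean of at least 100 CPM. The measure was the root mean square distance between centred log2 profiles after TMM scaling, in which the libraries share their scaling and depth. miR-21-5p was nearest, at 0.0614, followed by miR-99a-5p at 0.0880 and miR-148b-3p, of a seed family known to target Dnmt1, at 0.122. miR-21-5p had 122434, 131183 and 133761 CPM in EV and 166044, 144604 and 148265 CPM in Intracellular libraries, and its groups did not overlap. Among the members themselves, let-7a-5p was nearest to the family sum (0.0585), and 7 of 9 lay within 0.124. Each member is itself part of that sum, so distances of members and of non-members are not like for like. let-7c-5p (0.249) and let-7b-5p (0.368) lay farther from the sum of their own family than 6 and 30 of the 152 non-members did.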

How the data were processed

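Small RNA of 3 EV and 3 Intracellular samples was profiled. Per the labels' protocols, libraries were built by adapter ligation, PCR and size selection on a gel. The submitters' processing notes name cutadapt and the build Rnor_6.0. The rule for dividing shared reads, like the aligner and the counting program, is not given in the sources used here. The deposited count table holds the authors' whole-number counts per mature miRNA. The deposited TPM table, made by the authors, equals counts scaled to 1000000 per library, with a largest difference of 4.8e-05, and is called CPM in the text. Ligation and PCR favour some sequences, so levels of different members compare library molecules, and no molecular identifiers are named.

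Counts were tested on the whole table with edgeR 4.0.16 in R 4.3.3 (quasi-likelihood test, filterByExpr with minimum count 10 and minimum total 15, TMM, robust dispersions, no replicate block, EV minus Intracellular, 2-sided, Benjamini-Hochberg adjusted p under 0.05 over 328 tested rows). A second fit took the sum of the 9 members as library size. Shares and arm ratios (prior count 1) were compared with scipy 1.17.1 by exact permutation tests. limma 3.58.1 and DESeq2 1.42.0 served as alternatives, beside other scalings, filters, pseudocounts, a replicate block and each library left out. The members and lists were chosen with earlier results of these data known. Named miRNAs were all 9 members, their 3p arms with at least 10 pooled EV counts, the 5p arms of miR-99a, miR-99b, miR-100, miR-125a and miR-125b, the comparators miR-143-3p, miR-21-5p and miR-16-5p, and the 3 known non-members nearest to the family sum. Arms of miR-125a, miR-143, miR-152 and miR-181a were added beside let-7d.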

Additional observations from a re-analysis of the deposited data

How the results depend on the processing

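The count of members called lower, 7 with TMM, ranged from 5 to 8 with TMM computed without the 10 most abundant miRNAs, upper quartile or RLE scaling, other filters, known miRNAs alone, DESeq2, limma-voom and the replicate block. It was 2 with total counts, 2 with limma on log2(TPM + 1) and 1 with limma on log2(TPM + 0.1), and these settings called 1 passenger row, let-7d-3p, in place of 0. Leaving out each library gave 2 to 7 lower and 0 to 1 higher calls, the lowest without EV replicate 1. Correlations of same-numbered libraries were -0.03, 0.07 and 0.21, and those of differently numbered ones -0.29 to 0.19. With 3 libraries in a group, they cannot decide whether the replicate numbers pair the samples. The replicate block called 5 lower members and lost let-7g-5p (-0.77, edgeR adjusted p = 0.0753) and let-7i-5p (-1.01, edgeR adjusted p = 0.0575). Relative to the family total, calls were 0 to 4 with a library left out, 1 (let-7c-5p) against the sum of the other 8 members and 0 with the block.

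Signs turned as follows, all in miRNAs without a call with TMM except miR-99b-5p and miR-100-5p. With total counts, log2(TPM + 1) and log2(TPM + 0.1), let-7b-5p stood at 0.44, 0.46 and 0.46, let-7c-5p at 0.23, 0.25 and 0.25, let-7a-1-3p with let-7c-2-3p at 0.41, 0.43 and 0.43, miR-99b-5p at 0.0410, 0.0603 and 0.0603, and miR-100-5p at 0.0769, 0.0814 and 0.0814. With the log2(TPM + 1) and log2(TPM + 0.1) values, let-7c-1-3p stood at 0.0896 and 0.112, and with the latter let-7i-3p at -0.96. With upper quartile scaling let-7d-3p stood at -0.0279 and let-7e-3p at -0.0025. With a library left out, let-7b-5p ranged from -0.56 to 0.33, let-7c-5p from -0.75 to 0.0901 and let-7e-3p from -0.0918 to 0.55.

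The difference in family share was -16.3 percentage points without the 10 most abundant other miRNAs and -5.18 to -1.996 with a library left out. The share of the family did not overlap for 6 to 8 members in all 7 alternatives. Of the 2 arm ratios, 1 did not overlap, 2 with a prior count of 5, and 1 to 2 with a library left out. Causes of these changes were not tested. Shallow EV libraries limit the 3p arms most.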
